A study of Mus musculus with 170 samples.

Results

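The genes described here were 40 cell cycle and DNA replication genes, read in the lungs and hearts of mice that had received wildfire smoke condensate. They were chosen by symbol: a row of the count table belonged to the set when its name, without the trailing probe number, was one of the 40 symbols. This gave 85 of 30146 probe rows and 40 of 21450 symbols. The probes of a symbol were summed, with 8 members on 1 probe and 32 on several, at most 5. Of the members, 39 passed the filter on low counts in lung and 32 in heart. The member left out in lung was Foxm1, a transcription factor of mitotic genes, which had no count in 33 of 140 lungs and stayed at or below 1.92 CPM in all of them. In heart, Foxm1, Cdc6, Cdt1, Mcm5, Tk1, E2f1, Kif11 and Nusap1 were too low to test.

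The animals were CD-1 mice, outbred and all female. Doses were given into the lungs from the back of the throat, in the smoke groups as 50 µL of saline with 2 mg/mL of particulate matter. The 10 smokes were those of 5 fuels (eucalyptus, peat, pine, pine needles and red oak), from a smoldering and from a flaming burn of each. Control groups received saline alone or bacterial lipopolysaccharide (LPS), whose dose is not given in the sources used here. Lungs were read at 2 times after exposure, 4 h and 24 h, in 6 animals of the saline group and of each smoke and in 4 of the LPS group. At 24 h hearts were read too, in 6 animals each after saline, red oak smolder, red oak flame, peat smolder and peat flame, and each heart came from an animal whose lung was also read. By their titles the libraries of a group were separate animals.

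A cell that is about to divide first loads the Mcm helicase onto its replication origins with the help of Cdc6 and Cdt1, then copies its DNA behind the sliding clamp Pcna while ribonucleotide reductase supplies the building blocks. Later it makes the mitotic cyclins and kinases that condense, align and separate the chromosomes. Transcription of the first wave is driven largely by E2F factors at the entry to S phase, and that of the second wave by factors that act through CCAAT boxes and CHR elements in G2. The lung is a tissue of slow turnover in which few cells divide at rest, and adult heart muscle cells divide very rarely. The share of the cells that carried these transcripts was not measured. In tissue RNA, fewer cells of a type and less RNA per cell cannot be told apart.

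The 170 libraries held 4426180 to 8046021 counts each. The counts on the members were 2055 to 9302 per lung and 1508 to 2805 per heart, and their number limits the precision of the weaker genes. The summed CPM of 5 epithelial markers was 28009.5 to 52498 in the 24 h saline lungs against 13.2 to 22.3 in the saline hearts, and that of 5 heart muscle markers was 28168 to 34249 in the saline hearts against 176 to 1038 in the 24 h saline lungs. Of the libraries, 6 had fewer than 13000 detected genes (lowest 9886, the others 13135 to 15644). All 6 were 24 h smoke lungs of 6 different groups, and 21 to 36 of the 40 members were detected in them. This cut marked no clear gap: 24 h lungs held 12545 just below it and 13135, 13159 and 13196 just above, the last a saline lung. Plate and time were nearly the same split in lung: 65 of 70 lungs at 4 h were on plate 1 and 53 of 70 at 24 h on plate 2.

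Among the comparisons of a single exposure with saline, the most calls in the set were made in lung at 24 h after LPS. There 7 of 39 tested members rose against saline and none fell (edgeR's quasi-likelihood test, Benjamini-Hochberg adjusted p under 0.05). That is 17.9% of the members, where 12.1% of all 14458 tested genes were called in either direction and 7.58% rose. The 7 were the licensing factors Cdt1 and Cdc6, the clamp Pcna, the primase subunit Prim1, the nucleotide supply enzymes Tk1 and Rrm2, and the G1/S cyclin Ccne1. All 7 act before or during DNA synthesis. None of the 7 mitotic kinase and checkpoint members and none of the 8 spindle, kinetochore and chromosome structure members was called.

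Cdt1, which loads the Mcm helicase onto origins, stood at 33.1, 32.5, 31.01 and 25.9 CPM in the 4 LPS lungs and at 6.92 to 21 CPM (median 10.7) in the 6 saline lungs. Every LPS lung lay above every saline lung. The rise was 1.36 on the log2 scale (SE 0.30, edgeR adjusted p = 0.000393), and it was called under all 18 alternative settings. Of its 2 probes tested singly, the stronger was called (edgeR adjusted p = 0.00128) and the other was not (1.01, edgeR adjusted p = 0.276). The stronger probe stood for the gene in that setting. Cdc6, the partner of Cdt1 in licensing, was at 9.02, 5.89, 3.37 and 6.91 CPM after LPS and at 0.589 to 4.75 CPM (median 1.95) after saline. The groups overlapped by 1 LPS lung, and the rise was 1.72 (SE 0.56, edgeR adjusted p = 0.0263).

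Among the genes of the fork and of nucleotide supply, Pcna stood at 152, 234, 181 and 87.9 CPM after LPS against 68.9 to 123.95 CPM (median 88.5) after saline. In 3 of the 4 LPS lungs it was above all saline lungs, while LPS replicate 4 lay at the saline median, and the rise was 0.82 (SE 0.22, edgeR adjusted p = 0.00477). Tk1, the thymidine kinase of dividing cells, was at 12.7, 9.73, 6.73 and 21.8 CPM against 3.01 to 9.0 CPM (median 4.94). Its rise was 1.34 (SE 0.38, edgeR adjusted p = 0.00818), with 1 LPS lung inside the saline range. Prim1, which makes the RNA primers of new strands, was at 25.5, 17.7, 11.8 and 16.6 CPM against 6.25 to 15.04 CPM (median 9.77), a rise of 0.80 (SE 0.24, edgeR adjusted p = 0.0167). Again 3 of 4 LPS lungs were above all saline lungs. Rrm2, the small subunit of ribonucleotide reductase, was at 28.1, 24.1, 14.7 and 24.4 CPM against 7.47 to 13.9 CPM (median 12.5), with no overlap. It passed the threshold narrowly (0.98, SE 0.34, edgeR adjusted p = 0.0454) and kept its call in 6 of 18 alternatives.

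Ccne1, the cyclin that drives entry into S phase, stood at 8.84, 12.03, 7.45 and 8.20 CPM after LPS and at 1.64 to 5.38 CPM (median 2.68) after saline. Every LPS lung lay above every saline lung, with a rise of 1.59 (SE 0.50, edgeR adjusted p = 0.0195). Members for which all 4 LPS lungs lay above all 6 saline lungs were Cdt1, Ccne1 and Rrm2, 3 of 39, where 7.37% of all tested genes showed such a gap. Mcm3, a subunit of the helicase, just missed the threshold (0.97, edgeR adjusted p = 0.0784; DESeq2 also called 7 members, with Mcm3 in place of Rrm2), at 40.1, 40.97, 26.9 and 22.2 CPM against 7.47 to 35.3 CPM (median 14.6). Its sister subunits differed less, with 0.59 for Mcm2 (adjusted p = 0.416), 0.49 for Mcm5 (adjusted p = 0.669), 0.22 for Mcm7 and -0.03 for Mcm6.

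Of the mitotic kinases and checkpoint genes 6 of 7 had a difference above 0, and of the spindle, kinetochore and chromosome structure genes 5 of 8, none with a call. Top2a, which untangles sister chromosomes, was at 158, 168, 90.1 and 144 CPM after LPS and at 36.5 to 146 CPM (median 68.1) after saline, a difference of 0.84 (edgeR adjusted p = 0.148). The LPS values lay in the upper part of the saline range or above it. Mki67, the usual marker of dividing cells, was at 10.96, 5.38, 5.05 and 4.97 CPM against 1.22 to 8.10 CPM, and its difference of 0.49 had a standard error of 0.69 (adjusted p = 0.734). The mitotic cyclin Ccnb1 gave 0.05 (SE 0.51, adjusted p = 0.976), its kinase Cdk1 0.34 (adjusted p = 0.732) and the transcription factor E2f1 0.44 (adjusted p = 0.469).

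By role, the median log2 difference after LPS at 24 h was 0.49 for licensing and origin firing, 0.81 for replication fork and nucleotide supply, 0.14 for cyclins, Cdk1 and transcription factors, 0.49 for mitotic kinases and checkpoint, and 0.29 for spindle, kinetochore and chromosome structure. Over all 39 members it was 0.42, with 32 above 0, where the median over all tested genes was -0.12 and 42.1% lay above 0. The number of called members in these role groups was 2 of 9, 4 of 8, 1 of 7, 0 of 7 and 0 of 8. The difference between the role groups was not tested.

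**Figure D1:**
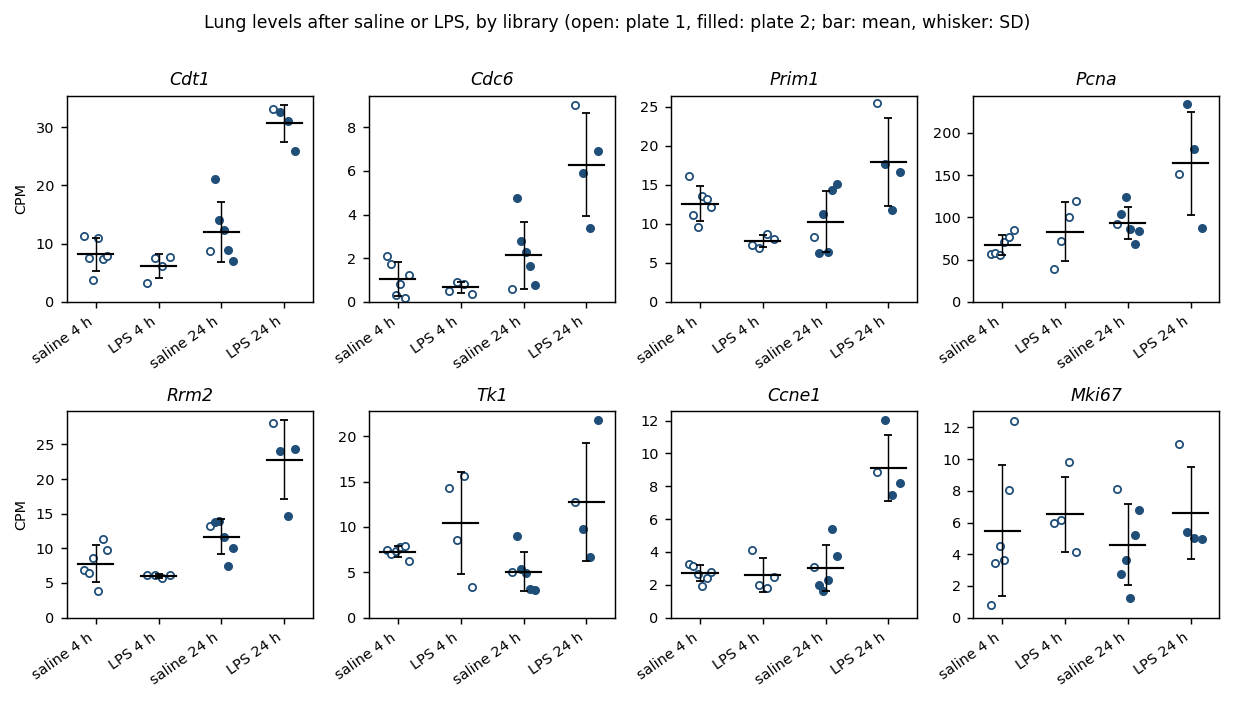
TMM-scaled CPM (y axis) of 8 members in single lungs of the saline and LPS groups at 4 h and 24 h (x axis), open points on plate 1 and filled points on plate 2, with the mean and SD of each group. At 24 h all 4 LPS lungs lie above the 6 saline lungs for Cdt1, Ccne1 and Rrm2, while the Mki67 values overlap.

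The 7 calls depended on single animals and on the fit. Without LPS replicate 1, the LPS lung that was on plate 1, Ccne1, Cdt1, Pcna and Tk1 remained, and without LPS replicate 2 Cdc6, Cdt1, Prim1 and Tk1 remained, 4 calls each. Cdc6 was also lost without saline replicate 1, 5 or 6, Prim1 without saline replicate 1, 2 or 4, and Tk1 without LPS replicate 4 only, at differences of 1.52 to 1.66, 0.69 to 0.72 and 0.95. On plate 2 alone (3 LPS and 5 saline lungs) Cdt1 was the 1 call, and with the 24 h lungs fitted alone the calls were Cdc6, Cdt1, Pcna and Tk1. Cell type markers moved with the result: 3 of 3 tested monocyte markers and 6 of 6 neutrophil markers rose. Their summed level was 799 to 1645 CPM after LPS against 72.5 to 167 CPM after saline for monocytes, and 338 to 523 CPM against 19.9 to 49.9 CPM for neutrophils. Of 7 tested erythroid precursor markers none was called, at 83.7 to 166 CPM against 101.05 to 170 CPM. Of 4 tested neutrophil precursor markers Ngp rose, the list summing to 45.6 to 99.3 CPM against 42.1 to 120.3 CPM, with Elane and Ms4a3 at 0 in all these lungs. Of 5 lung epithelium markers Scgb1a1 fell (summed level 15766 to 30188 CPM against 28009.5 to 52498 CPM). Of 5 tested alveolar macrophage markers Marco rose and Fabp4 fell (23.3 to 59.6 CPM against 39.5 to 121.3 CPM). This list summed to 819 to 2120 CPM in the saline hearts, where Marco was at 0, so its sum is not particular to alveolar macrophages. Of 5 T cell markers none was called (69.5 to 135.2 CPM against 42.5 to 95.95 CPM). The part of all these cells in the rise of the members was not tested.

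Other genes of the pathway were counted by list. Of 31 tested genes on a list of other replication genes 1 rose, the DNA ligase Lig1 (0.68, edgeR adjusted p = 0.0406), and of 38 other mitotic genes 2 rose, the kinase Melk (2.15, adjusted p = 1.09e-05) and the chromosomal passenger protein Incenp (0.81, adjusted p = 0.0121). Among 19 genes of the list of G1 cyclins, their kinases and E2F/Rb factors, Myc rose by 1.91 (adjusted p = 1.99e-05) and Ccnd1 did not pass the test (0.07, adjusted p = 0.96). Of 16 CDK inhibitors and growth arrest genes 4 rose: Gadd45b by 1.71, Gadd45g by 1.52, Cdkn1a, which blocks cyclin-dependent kinases, by 1.46, and Btg1 by 1.32. Of 14 proliferation signals 6 rose and 1 fell, with the cytokines Csf3 at 7.31, Il6 at 6.16, Csf2 at 3.91 and Csf1 at 1.80 on the log2 scale.

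The sequences upstream of the starts of these genes were read for the 3 elements named above. They are shown for Cdt1, Cdc6 and Prim1, called at 24 h after LPS, for Bub1, called at 4 h, and for Cdk1 and Top2a, called at neither time. RefSeq windows of 250 bases upstream of a start (GRCm38.p6) matched 33 member symbols. The elements were the CCAAT box (CCAAT), the CHR element (TTTGAA) and an E2F site (TTCCCGC or TTCGCGC), searched on both strands. In the windows shown only the E2F and CCAAT matches of Prim1 share a base. CCAAT was found for 25 of the 33 members, against 33.8% of all 32851 windows, the CHR letters for 9, against 16% of all windows, and the E2F letters for 9, against 5%. Of the 7 members called after LPS at 24 h, 3 had CCAAT, none had the CHR letters and 2, Cdc6 and Prim1, had the E2F letters, and of the other 26 these numbers were 22, 9 and 7. A match describes the letters of the window and shows neither binding nor use of a site. Each window is written 5' to 3' on the strand of the gene, with the matches in capitals.
Cdt1, chr8:122567765-122568014, plus strand: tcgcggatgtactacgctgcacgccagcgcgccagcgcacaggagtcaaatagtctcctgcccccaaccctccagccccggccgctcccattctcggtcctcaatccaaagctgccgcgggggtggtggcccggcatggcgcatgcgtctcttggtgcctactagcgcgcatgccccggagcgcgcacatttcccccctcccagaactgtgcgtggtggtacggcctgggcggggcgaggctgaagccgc
Cdc6, chr11:98907901-98908150, plus strand: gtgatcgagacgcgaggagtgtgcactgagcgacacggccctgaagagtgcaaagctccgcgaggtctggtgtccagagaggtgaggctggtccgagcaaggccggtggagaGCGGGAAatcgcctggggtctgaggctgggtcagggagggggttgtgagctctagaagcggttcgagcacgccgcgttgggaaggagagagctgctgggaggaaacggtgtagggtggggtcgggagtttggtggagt
Prim1, chr10:128014965-128015214, plus strand: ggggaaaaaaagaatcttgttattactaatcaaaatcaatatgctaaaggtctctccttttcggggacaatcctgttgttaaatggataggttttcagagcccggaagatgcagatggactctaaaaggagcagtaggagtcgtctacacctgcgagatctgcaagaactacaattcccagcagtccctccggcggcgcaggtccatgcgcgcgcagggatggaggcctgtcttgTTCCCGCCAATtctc
Bub1, chr2:127831860-127832109, minus strand: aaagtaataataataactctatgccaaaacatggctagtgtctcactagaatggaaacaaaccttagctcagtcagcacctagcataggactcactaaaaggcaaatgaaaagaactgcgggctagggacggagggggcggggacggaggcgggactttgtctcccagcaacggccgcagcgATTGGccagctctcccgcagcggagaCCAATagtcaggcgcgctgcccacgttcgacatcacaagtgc
Cdk1, chr10:69352913-69353162, minus strand: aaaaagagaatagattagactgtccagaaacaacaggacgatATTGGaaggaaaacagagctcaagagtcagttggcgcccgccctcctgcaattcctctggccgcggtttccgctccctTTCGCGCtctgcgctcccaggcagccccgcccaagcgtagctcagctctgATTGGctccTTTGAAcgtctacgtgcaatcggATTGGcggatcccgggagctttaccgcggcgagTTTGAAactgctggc
Top2a, chr11:99024190-99024439, minus strand: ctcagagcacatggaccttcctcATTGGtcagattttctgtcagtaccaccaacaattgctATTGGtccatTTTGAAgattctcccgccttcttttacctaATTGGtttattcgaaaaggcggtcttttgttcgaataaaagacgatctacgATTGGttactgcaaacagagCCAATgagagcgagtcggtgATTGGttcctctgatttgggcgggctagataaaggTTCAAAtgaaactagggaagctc
The windows of Cdc6 and Prim1, called after LPS at 24 h, hold an E2F match each (the letters GCGGGAA in Cdc6 are the match on the other strand). That of Cdt1 holds none of the searched letters. The windows of Pcna and Rrm2, called at 24 h but not shown, hold 1 CCAAT match each and no other match. Those of Tk1 and Ccne1, also called and not shown, hold none of the searched letters. Those of Cdk1 and Top2a, which were not called, hold 2 CHR matches each with 3 and 6 CCAAT matches, and that of Cdk1 also an E2F match, where ATTGG is CCAAT on the other strand. Bub1, described next, has 2 CCAAT matches and neither of the other 2 elements.

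At 4 h after LPS the picture was another. Of the 39 members 1 fell and none rose, where 8.98% of all tested genes were called in either direction and 3.49% fell. This member was Bub1, a kinase of the spindle checkpoint, at 4.26, 4.81, 9.30 and 6.02 CPM after LPS and at 11.7 to 30.1 CPM (median 18.6) after saline. All LPS lungs lay below all saline lungs, and it fell by 1.65 on the log2 scale (SE 0.43, edgeR adjusted p = 0.00442), called in 18 of 18 alternatives. At 24 h Bub1 was back within the saline range or above it, at 22.1, 22.5, 13.9 and 29.6 CPM against 13.1 to 25.1 CPM. Prim1 was also below all saline lungs at 4 h, at 7.33, 6.91, 8.64 and 8.09 CPM against 9.52 to 16.1 CPM (median 12.7), but missed the threshold (-0.70, edgeR adjusted p = 0.0651), which it passed without the libraries of few detected genes. So did E2f1, at 3.41, 3.60, 2.99 and 3.57 CPM against 3.89 to 6.40 CPM (-0.68, adjusted p = 0.279). Members with all LPS lungs below all saline lungs were thus 3 of 39, where 3.8% of all tested genes showed that gap.

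Over the 39 members the median difference at 4 h was -0.04, the same as over all tested genes, and no other member was called. The values were 0.30 for Pcna (edgeR adjusted p = 0.5), -0.48 for Top2a (adjusted p = 0.562), 0.25 for Mki67 (adjusted p = 0.901), 0.36 for Cdk1 (adjusted p = 0.772), 0.03 for Ccnb1, -0.06 for Mcm2 and 0.09 for Mcm5. On the list of other replication genes 3 of 31 fell and none rose, among them Gmnn, the inhibitor of Cdt1 (-1.37), and Lig1 (-0.94). Of the other mitotic genes the condensin subunit Smc2 fell (-0.89). Myc rose by 1.94 (adjusted p = 2.26e-05), Cdk2 fell (-0.59) and Ccnd1 was not called (0.59, adjusted p = 0.578). Of the CDK inhibitors and growth arrest genes 5 of 16 rose, Cdkn1a by 2.04 (adjusted p = 2.29e-05). Neutrophil markers were raised by then as well (6 of 6 tested called, summed level 319 to 1362 CPM against 47.5 to 86.7 CPM), as were 2 of 3 tested monocyte markers. Their part in the fall of Bub1 was not tested.

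The change in the LPS effect between the times was tested in the same fit. The effect at 24 h minus that at 4 h was positive and called for 2 of 39 members, where 0.581% of all tested genes were called and 0.436% were positive. It was 1.49 for Prim1 (SE 0.35, edgeR adjusted p = 0.0154) and 1.76 for Cdt1 (SE 0.44, edgeR adjusted p = 0.0266), which at 4 h after LPS stood at 3.24, 7.51, 6.15 and 7.71 CPM against 3.74 to 11.3 CPM in saline. Prim1 thus lay below all saline lungs at 4 h and, in 3 of 4 animals, above all of them at 24 h. The median of the difference over the members was 0.51, against -0.05 over all genes. For Bub1 it was 1.89 (adjusted p = 0.123), for E2f1 1.12 (adjusted p = 0.468), for Top2a 1.32 (adjusted p = 0.411), and for Pcna, Mcm2, Mcm5, Mki67, Ccnb1 and Cdk1 between -0.02 and 0.65. Lig1 (1.62) and Gmnn (1.43) were called as well. No member was called without LPS replicate 1 or without LPS replicate 2 of 24 h, and 1 was called without each of 8 other lungs.

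The levels of the saline lungs at the 2 times bear on this comparison. No gene of the table was called between saline lungs of 24 h and 4 h, so 0% of all tested genes and none of the 39 members (edgeR; DESeq2 also called none). At an unadjusted p under 0.05, however, 7 members were higher at 24 h (17.9%, against 4.85% of all tested genes). They were Cdk1, Mcm3, Plk1, Ccnb1, Pcna, Top2a and Uhrf1. Cdk1 was at 5.30 to 12.5 CPM (median 9.64) at 24 h and at 1.72 to 4.62 CPM (median 3.04) at 4 h, with no overlap (1.43, SE 0.48, edgeR adjusted p = 0.391). Plk1 also did not overlap (8.39 to 20.8 CPM against 4.01 to 8.08 CPM). The member median was 0.50 against -0.02 over all genes. Since nearly all 4 h lungs were on plate 1 and most 24 h lungs on plate 2, plate and time cannot be told apart here, beyond the plate term of the fit.

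**Figure D2:**
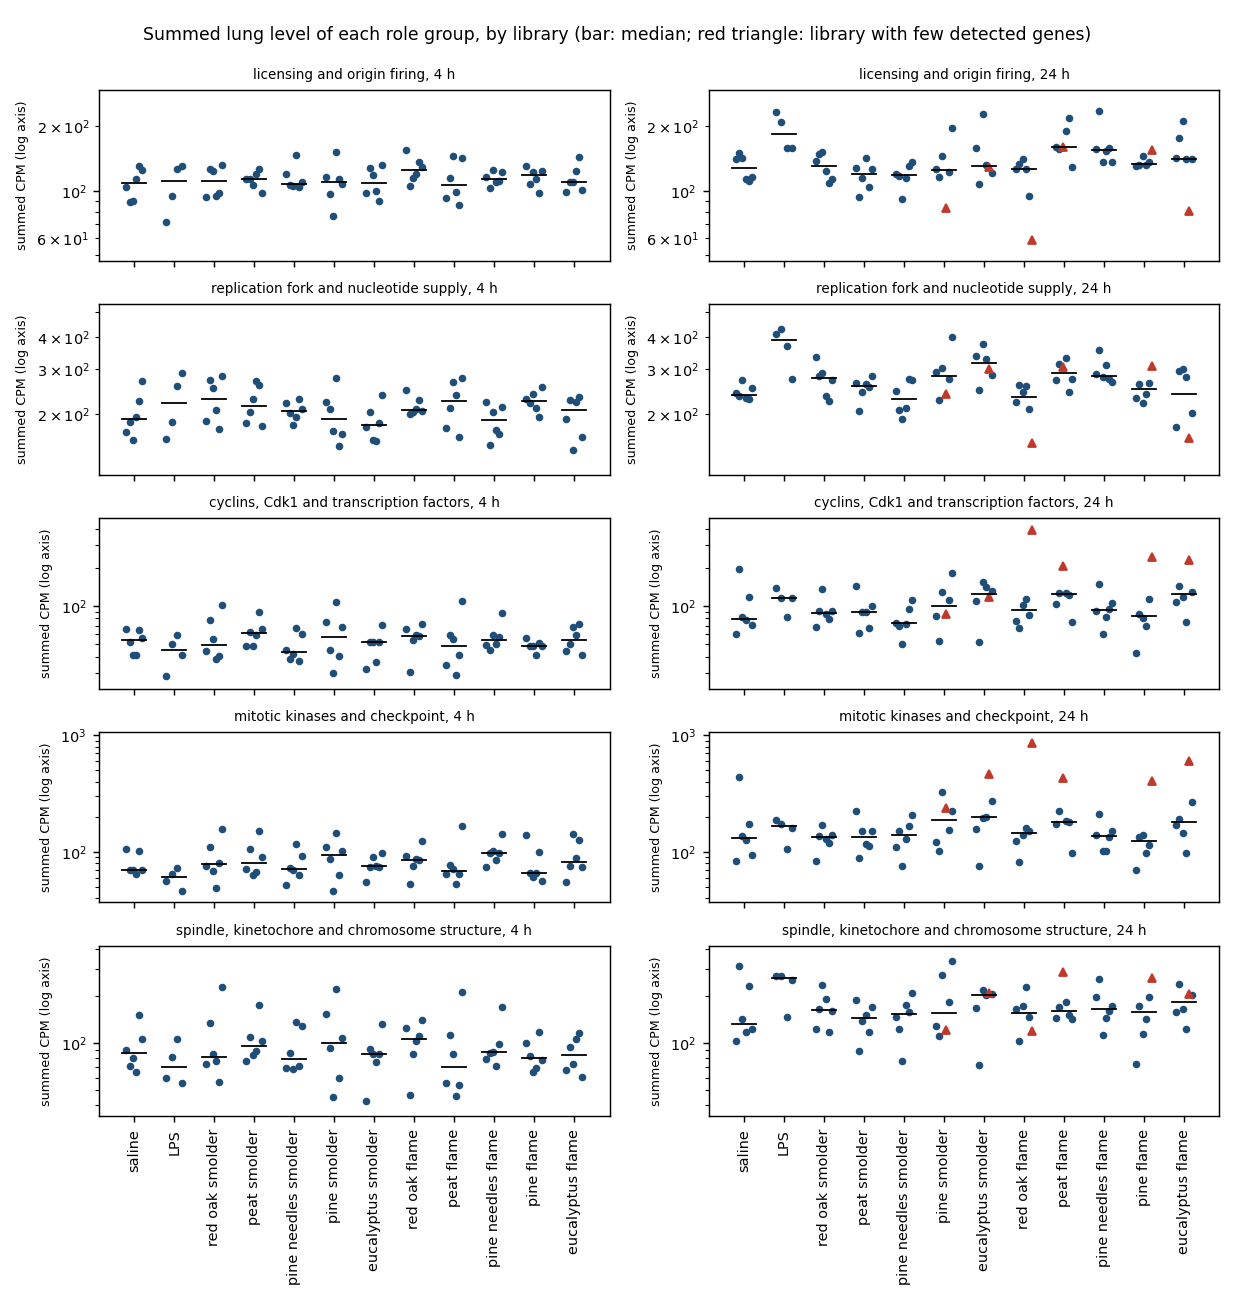
Summed TMM-scaled CPM of the members of each role group (y axis, log scale) in every lung, by treatment (x axis) and time. The red triangles are the 6 libraries with few detected genes. Over all 40 members the saline lungs had medians of 721 CPM at 24 h and 509 CPM at 4 h, with overlapping ranges (629.7 to 1333 and 441 to 673 CPM).

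After smoke few members passed the test. At 4 h none of the 390 tests of a member in a single smoke was called (smallest edgeR adjusted p = 0.164). Over all genes 0% to 0.297% were called per smoke, most in peat flame, and 0.0456% over the 10 smokes. At an unadjusted p under 0.05 there were 10 (2.56%, against 5.05% of all gene tests), 5 higher and 5 lower, and DESeq2 called 1, Tk1 in peat flame. At 24 h 1 of 390 was called, Prim1 in peat flame, with 0% to 1.75% of all genes called per smoke, most in red oak flame, and 0.187% over the 10 smokes. Unadjusted p was under 0.05 in 31 (7.95%, against 7.26% of all gene tests), 27 of them higher. DESeq2 called 3, namely Prim1 in red oak flame and Prim1 and Tk1 in peat flame. All single smokes were set against the same 6 saline lungs of their time, so their differences share those lungs.

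Summed over all 40 members, the level after the 10 smokes had group medians of 496 to 599 CPM at 4 h, beside 509 CPM in saline (441 to 673) and 520 CPM after LPS. At 24 h the smoke medians were 701 to 1012 CPM, beside 721 CPM in saline (629.7 to 1333) and 1077 CPM after LPS. The lowest smoke median at 24 h was that of pine needles smolder, the group whose 24 h lungs were all on plate 1, and the highest that of eucalyptus smolder. In eucalyptus smolder, replicates 4, 5 and 6 had 13317, 11690 and 13135 detected genes and sums of 1006, 1221 and 1019 CPM. Its replicates 1, 2 and 3, with 15435, 15063 and 15293 detected genes, summed to 931, 557 and 1172 CPM. Cdc20 alone had a median of 409 CPM in the 6 libraries of few detected genes, beside 74.7 CPM in the other 24 h lungs. The mean of the 10 smokes called no member at 4 h, where 0% of all genes were called (0 members at an unadjusted p under 0.05, and none by DESeq2), with a median of 0.12. At 24 h it called none either (background 0.00692%, DESeq2 none), and 2 members, Prim1 (0.51, SE 0.17) and Tk1 (0.62, SE 0.27), were higher with an unadjusted p under 0.05 (5.13%, against 1.01% of all genes). The median of the members there was 0.18. For the replication genes Pcna, Mcm2 and Mcm5 the mean smoke effect at 24 h was -0.06, 0.11 and -0.24. For Mki67, Top2a, Ccnb1, Cdk1 and E2f1 it was 0.42, -0.02, -0.08, 0.08 and -0.01, all with an edgeR adjusted p of 1. At 4 h it lay between -0.03 (Top2a) and 0.61 (Cdk1) for these 8 genes.

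**Figure D3:**
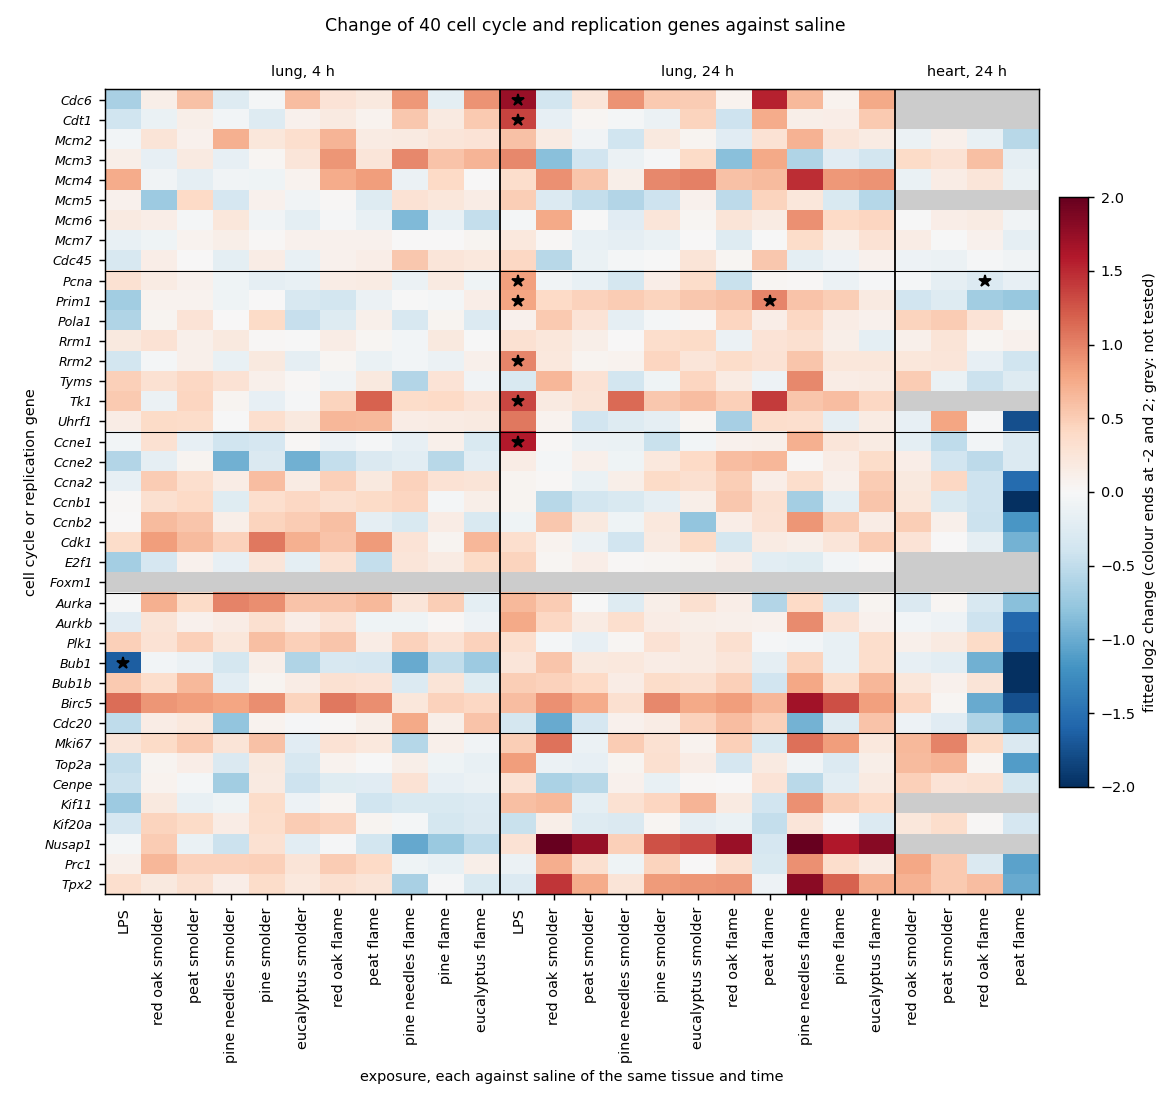
Log2 change of each member (rows, by role) against saline of the same tissue and time in each treatment (columns), with colour ends at -2 and 2, stars on called changes and grey where a member was not tested. The stars are 7 in the 24 h LPS column, Bub1 after LPS at 4 h, Prim1 after peat flame at 24 h and Pcna in the hearts after red oak flame.

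Prim1 and Tk1 were higher than in saline, on average, after each of the 10 smokes at 24 h, mostly without passing the test. The log2 difference of Prim1 from saline was above 0 in 10 of 10 smokes, from 0.18 in eucalyptus flame to 0.98 in peat flame, with group medians of 12.5 to 18.6 CPM beside 9.77 CPM in saline. That of Tk1 ran from 0.19 in red oak smolder to 1.39 in peat flame. Aurkb, Birc5, Mcm4 and Rrm2 were the other members above 0 in all 10 smokes of 24 h, 6 of 39 in all (3.93% of all genes were above 0 in all 10), and none was below 0 in all 10. At 4 h there were 5 such members (Birc5, Ccna2, Cdk1, Mcm2 and Plk1), where 8.11% of all genes were. Since the smokes share their saline lungs, these 10 differences are not independent. Nusap1, a spindle protein, had the largest fitted difference of a member in lung after smoke, with values at 24 h from -0.33 in peat flame to 2.29 in pine needles flame (SE 0.86, edgeR adjusted p = 0.168). These values rest on few counts: Nusap1 stood at 0 to 1.05 CPM in saline, with no count in 2 of the 6 lungs, and at 1.253 to 2.91 CPM after pine needles flame. The smoke effect on Prim1 at 24 h was 0.58 above that at 4 h in the mean of the smokes, with an unadjusted p under 0.05, the 1 such member in that test (1.6% of all genes were higher at that p); none of the 39 was called, where 0% of all genes were called (DESeq2 none).

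Peat flame at 24 h carried the 1 call in smoke-exposed lung. Prim1 was at 14.9 to 32.5 CPM (median 18.6) in the 6 peat flame lungs and at 6.25 to 15.04 CPM (median 9.77) in saline. In 5 of 6 peat flame lungs it was above all saline lungs. The rise was 0.98 (SE 0.22, edgeR adjusted p = 0.0314), 1 called member where 0.0692% of all tested genes were called. It was called in 7 of 20 alternatives, and was lost without peat flame replicate 1, 2, 3 or 5 or saline replicate 1, 2, 3 or 4, at differences of 0.79 to 1.0. It was called without the 6 libraries of few detected genes, 1 of which was a peat flame lung, replicate 3. That check kept peat flame replicates 1 and 2, with 13746 and 13159 detected genes, and saline replicate 2, with 13196. Peat flame replicates 4, 5 and 6 had 15048, 14859 and 15421. The highest Prim1 value, 32.5 CPM, was in replicate 2. Prim1 had a median of 18.3 CPM in the 6 libraries and 13.8 CPM in the other 24 h lungs. The part of the number of detected genes in this call was not tested. Tk1 missed the threshold (1.39, adjusted p = 0.0976), as did Cdc6 (1.55, adjusted p = 0.505), Cdt1 (0.74) and Mcm3 (0.75). In the 6 libraries of few detected genes these 4 had medians of 13.5, 5.86, 23.2 and 22.2 CPM. In the other 24 h lungs the medians were 6.58, 2.38, 11.7 and 12.4 CPM. Mcm2 and Mki67 were lower in the 6 libraries (2.71 and 0 CPM beside 17.9 and 5.35 CPM). The part of the number of detected genes in these differences was not tested. Members with an unadjusted p under 0.05 numbered 6, all higher (15.4%, against 4.12% of all genes), yet Pcna gave 0.04, Mki67 -0.30, Top2a 0.17, Cdk1 0.17, Ccnb1 0.31, Mcm2 0.30, Mcm5 0.45 and E2f1 -0.22. None of the other replication genes (31 tested) and none of the tested markers of neutrophils, monocytes or lung epithelium was called in peat flame at 24 h. The summed neutrophil markers were at 34.5 to 111.3 CPM, beside 19.9 to 49.9 CPM in saline, and the part of such cells was not tested.

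Across all 12 lung groups of a time, 9 of 39 members differed at 24 h (23.1%, where 30.3% of all genes did), which is below the share over the whole table. They were Cdt1 (edgeR adjusted p = 8.15e-06), Mcm3 (1.41e-05), Pcna (0.000126), Tk1, Cdc6, Cdc45, Prim1, Ccne1 and Rrm1. DESeq2 called 10, without Rrm1 and with Cdc20 and Nusap1, which act in mitosis. Mcm3 had group medians from 9.05 CPM in red oak smolder through 14.6 CPM in saline to 29.1 CPM in peat flame and 33.5 CPM in LPS. In the 6 libraries of few detected genes, Cdt1, Mcm3 and Pcna had medians of 23.2, 22.2 and 98.6 CPM. In the other 24 h lungs they had medians of 11.7, 12.4 and 89.6 CPM. The part of the number of detected genes in these calls was not tested. At 4 h none differed (6.08% of all genes did), with 4 at an unadjusted p under 0.05 (15% of all genes), a smallest adjusted p of 0.0549 and 3 by DESeq2 (Bub1, Mcm3 and Tk1).

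Burning phase was compared over 30 flaming against 30 smoldering lungs. At 4 h 1 of 39 members was called, where 2.39% of all genes were called and 1.72% were higher after flaming smoke. Mcm3 was at 5.43 to 24.3 CPM (median 11.5) after flaming and at 3.15 to 11.2 CPM (median 7.55) after smoldering smoke. In 16 of the 30 flaming lungs it was above all smoldering lungs. It was higher by 0.64 (SE 0.16, edgeR adjusted p = 0.0118), in 8 of 8 alternatives. Of its 2 probes tested singly, the stronger, which stood for the gene, was called (edgeR adjusted p = 0.0236). The other was not (0.50, edgeR adjusted p = 0.149). Tk1 was next (0.50, adjusted p = 0.059), while Mcm2 (-0.02), Mcm5 (0.21), Pcna (0.09), E2f1 (0.19), Cdk1 (-0.26), Ccnb1 (0.00), Top2a (0.03) and Mki67 (-0.31) were not called. At 24 h no member was called (background 0.111%), none at an unadjusted p under 0.05 and none by DESeq2, and the 8 values lay between -0.13 (E2f1) and 0.36 (Ccnb1). Cdkn1a was lower after flaming smoke at 24 h (-0.68, adjusted p = 0.0266).

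Saline hearts and saline lungs of 24 h were compared on the common scale of a joint fit of both tissues. The comparison is read over the 32 members that passed the filter in each tissue alone. Of these, 15 differed (46.9%, where 72% of the 10990 genes that passed in each tissue were called), 13 lower and 2 higher in heart. Over all those genes 33.5% were lower and 38.5% higher. The helicase subunit Mcm3 was at 0.977 to 2.48 CPM (median 1.79) in heart and at 5.99 to 25.8 CPM (median 11.2) in lung (-2.89, SE 0.42, edgeR adjusted p = 2.69e-08). Top2a was at 4.86 to 23.2 CPM against 27.6 to 106.5 CPM (-2.46, SE 0.40, adjusted p = 3.46e-07), and the kinetochore motor Cenpe at 1.94 to 8.27 CPM against 14.02 to 98.4 CPM (-3.21, SE 0.44, adjusted p = 6.11e-09). In these 3 genes every heart lay below every lung, as in Cdc20, Plk1 and Bub1, 6 of 32 members in all (18.8%, against 23.9% of those genes). Cdc20 (-3.89), Ccnb1 (-2.15), Plk1 (-2.08), Bub1 (-2.0), Cdk1 (-1.15) and Mcm7 (-0.95) were among the others that were lower. The other 7 members of the joint fit, Cdc6, Cdt1, Mcm5, Tk1, E2f1, Kif11 and Nusap1, entered it through lung alone, so no difference is read from them. Cdt1, for example, was at 0.195 to 4.14 CPM in heart and at 5.17 to 15.3 CPM in lung. With them the count is 20 of 39.

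Pcna was higher in heart (76.4 to 114.5 CPM against 55.2 to 94.3 CPM, 0.43, SE 0.17, edgeR adjusted p = 0.0188), and so was the spindle factor Tpx2 (0.459 to 3.65 CPM against 0 to 1.56 CPM, 1.89, adjusted p = 0.0202). Mcm2 (0.57, adjusted p = 0.135), Mki67 (-0.72, adjusted p = 0.273), Rrm1 (0.03) and Kif20a (0.00) were not called. The split depends on the scaling: with the size factors of DESeq2, which move the median of all genes of the joint fit from -0.33 to -0.11, 10 of the 32 members were lower and 5 higher (33.3% of the calls higher, against 13.3%), and DESeq2 itself gave 12 and 7 (36.8%). With the animal as a replicate block 12 were lower and 2 higher, Pola1 being lost. Without saline heart replicate 1, or with only the saline libraries fitted (30 of these members tested), no member was higher, and 11 and 12 were lower.

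In the hearts after smoke 1 member was called, after red oak flame, where 12% of all genes were called and 6.69% fell. Pcna was at 56.1 to 67.4 CPM (median 62.8) in 6 red oak flame hearts and at 63.2 to 89.4 CPM (median 73.6) in 6 saline hearts. The ranges overlapped and the fall was small (-0.27, SE 0.08, edgeR adjusted p = 0.0330), called in 10 of 17 alternatives and lost without red oak flame replicate 2, 5 or 6 or saline replicate 1 or 2. The next was the G1/S cyclin Ccne2 (-0.52, adjusted p = 0.0532), also called by DESeq2. Mcm2 (-0.14), Cdk1 (-0.17), Ccnb1 (-0.42), Top2a (0.03) and Mki67 (0.39) were not called. On the list of other replication genes 3 of 24 fell: the single-strand binding subunit Rpa3 (-0.73), the clamp loader subunit Rfc3 (-0.64) and Gmnn (-0.56). The growth arrest gene Btg2 rose (0.67). Of 5 fibroblast markers 5 rose, with summed levels of 1181 to 2668 CPM against 699.9 to 1002 CPM in saline, and 3 of 5 endothelial markers rose; their part was not tested.

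Hearts after peat flame had low values of the mitotic members, but none passed the test over all genes. None of 32 members was called (edgeR, background 0.0447%; DESeq2 called 1, Bub1). At an unadjusted p under 0.05, 14 were lower and none higher (43.8%, where 6.04% of all genes were lower). In all 30 of 32 were below 0, with a median of -0.66 against 0.01 over all genes. Bub1 was at 0 to 1.42 CPM (median 0.223) in 6 peat flame hearts and at 1.11 to 6.69 CPM (median 1.74) in 6 saline hearts, the largest difference (-2.79, SE 0.67, edgeR adjusted p = 0.125), and 5 of 6 peat flame hearts were below all saline hearts. Birc5, the survivin of the chromosomal passenger complex, was at 0.517 to 1.57 CPM against 1.39 to 10.1 CPM (-1.76, adjusted p = 0.263). Aurkb, the kinase of that complex, was at 0.612 to 2.78 CPM against 1.29 to 8.49 CPM (-1.57, adjusted p = 0.296). The mitotic cyclin Ccnb1 gave -2.06, Uhrf1, which carries DNA methylation to new strands, -1.76, Plk1 -1.64, Top2a -1.12 and Cdk1 -0.94, while Pcna gave -0.17, Mcm2 -0.55 and Mki67 -0.29.

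**Figure D4:**
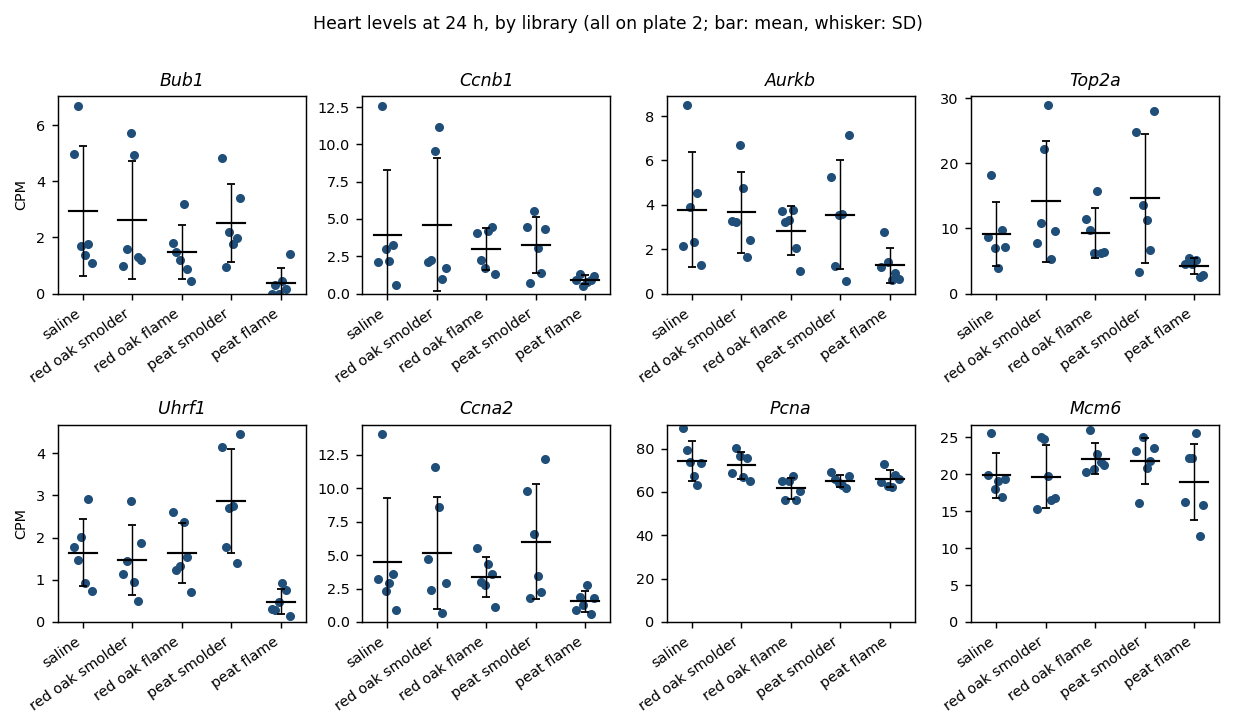
TMM-scaled CPM (y axis) of 8 members in single hearts of the saline and the 4 smoke groups (x axis), with the mean and SD. The peat flame hearts lie in the lower part of the saline range or below it for Bub1, Ccnb1 and Aurkb, and 1 saline heart is far above the others for several of the genes.

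By role, the medians in peat flame hearts were -1.64 for mitotic kinases and checkpoint, -1.05 for cyclins, Cdk1 and transcription factors, -0.68 for spindle, kinetochore and chromosome structure, -0.26 for replication fork and nucleotide supply, and -0.15 for licensing and origin firing. Summed over the 7 mitotic kinase and checkpoint members, the level was 5.07 to 7.76 CPM (median 6.89) in peat flame hearts and 7.75 to 45.2 CPM (median 17.03) in saline hearts. Saline replicate 2 was the highest. Without that heart, 8 members had an unadjusted p under 0.05 and the median was -0.37, and over the other hearts left out in turn these ran from 12 to 17 and from -0.73 to -0.60. Erythroid precursor markers summed to 186 to 468 CPM in peat flame and 288 to 579 CPM in saline hearts. Of these markers 0 of 6 tested were called, and Klf1 was at 0 in all saline hearts. Fibroblast markers summed to 861 to 1912 CPM in peat flame hearts, beside 699.9 to 1002 CPM in saline hearts. Endothelial markers summed to 247 to 345 CPM against 159 to 284 CPM. The part of all these cells was not tested. Btg2 rose in these hearts (0.87, edgeR adjusted p = 0.0329).

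The smoldering smokes left the heart members without a call. After red oak smolder none was called (0% of all genes), none had an unadjusted p under 0.05 and DESeq2 called none, with a median of 0.17. After peat smolder none was called (background 4.29%), 4 were higher and 2 lower at an unadjusted p under 0.05 (10.4% and 10.3% of all genes; smallest edgeR adjusted p = 0.142) and DESeq2 called none. In red oak smolder and peat smolder hearts Mki67 gave 0.65 and 0.99, Top2a 0.63 and 0.68, Ccnb1 0.22 and -0.30, Cdk1 0.28 and 0.00, Mcm2 -0.11 and 0.10, and Pcna -0.04 and -0.19. Fibroblast markers summed to 1057 to 2101 CPM in peat smolder and 766 to 2008 CPM in red oak smolder hearts, beside 699.9 to 1002 CPM in saline. The part of these cells was not tested. All 4 heart comparisons share the same 6 saline hearts. Cdkn1a rose after peat smolder (1.15, adjusted p = 0.0269).

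Heart and lung of the same animal could be set side by side in 30 animals, a comparison added after the values of the members had been seen. For each gene the deviations of log2 CPM (with 1 CPM added) from the group means were correlated between the tissues, with a permutation test within groups (100000 resamples, two-sided, adjusted over 10990 genes). Of 32 members 2 were called, where 0.364% of all genes were. Uhrf1 had a Pearson r of 0.69 (permutation p = 1e-05, the smallest these resamples can give, adjusted p = 0.00523) and a Spearman rho of 0.76 (permutation p = 2e-05, adjusted p = 0.00916). Top2a had an r of 0.66 (permutation p = 9e-05, adjusted p = 0.0260) and a rho of 0.69 (permutation p = 0.0001, adjusted p = 0.0297). Animals with more of these transcripts in the lung than their group tended to have more in the heart too. Uhrf1 rested on few counts in heart, with a mean of 10.7 per library. In the peat flame hearts it stood at 0.129 to 0.918 CPM, below the 1 CPM that was added. Without the 2 animals farthest from the median lung value r was 0.68 for Uhrf1 and 0.69 for Top2a, and in the 25 animals with lungs on plate 2 it was 0.70 and 0.71. The probes of a gene did not carry this alike, with r of 0.70 and 0.15 for the 2 of Top2a and 0.44 and 0.50 for the 2 of Uhrf1. Over the 32 members the median r was 0.19, with 27 above 0, against 0.002 over all genes and 50.4% above 0. The members were read in the same 30 animals, so their r values are not independent.

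**Figure D5:**
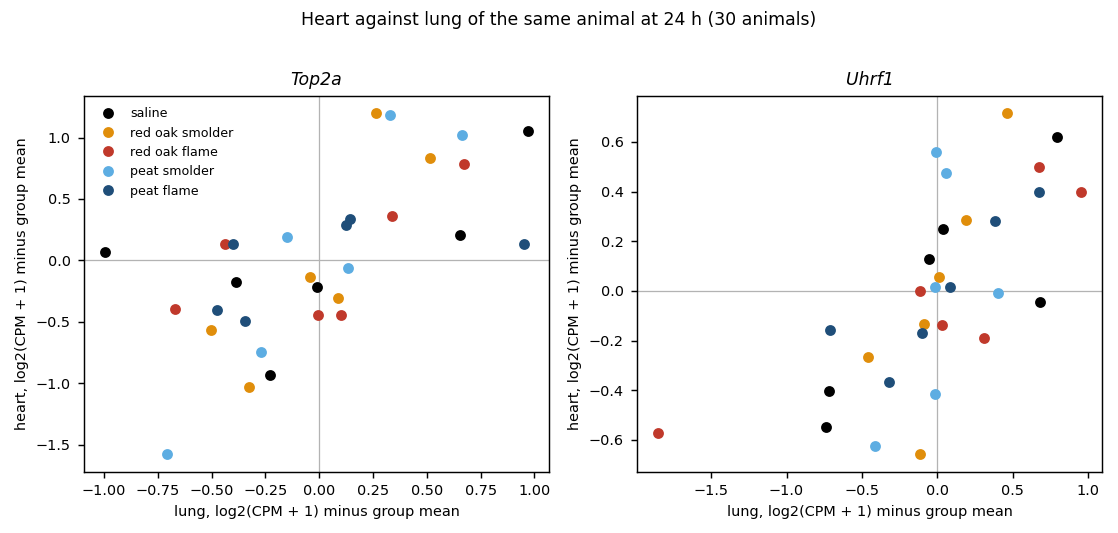
Deviation of log2(CPM + 1) from the group mean in the heart (y axis) against that in the lung (x axis) of the same animal, for Top2a and Uhrf1, 30 animals in 5 groups. The points rise together in both genes, with Pearson r of 0.66 for Top2a and 0.69 for Uhrf1.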

How the data were processed

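The deposited table held raw counts per probe for 170 libraries, made by the authors. The labels describe TempO-Seq, a targeted probe assay, and also name a QuantSeq 3' kit; Bowtie and DESeq2 are named, without versions, in the submitters' processing notes, and the build is not given in the sources used here. Probe rows were summed per symbol. The members and the lists of pathway genes and cell type markers were chosen with earlier results of these data known.

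The main tests were those of edgeR 4.0.16 in R 4.3.3 (TMM, filterByExpr, trended dispersion and the quasi-likelihood F test), in 1 fit of 140 lungs with group and plate, 1 of 30 hearts with group, and a joint fit for heart against lung. The Benjamini-Hochberg adjustment ran over all genes of a comparison, and the threshold for a call was 0.05. CPM are TMM-scaled within the fit of the tissue. In each comparison the called members are named, at most 12, with Mki67, Top2a, Ccnb1, Cdk1, Mcm2, Mcm5, Pcna and E2f1 whether called or not, up to 4 called genes per other list, and Cdkn1a, Ccnd1 and Myc. Members named for other values were chosen after these were seen. The values of 1 pathway gene are not reported here. No library was left out, and no 2 libraries of a group shared their values: at least 13635 genes had unlike counts in each pair. The tests were also run on simulated counts with known changes, with the same spread for all genes and no difference between plates. Such counts do not show how the tests behave with plate differences or libraries of few detected genes.

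Alternatives were DESeq2 1.42.0, its size factors in edgeR, no plate term, fits of 1 time or of 1 plate, probes tested singly, no filter beyond 1 count, only the 2 heart groups compared, leaving out the 6 libraries with fewer than 13000 detected genes, and omitting the saline and LPS libraries 1 at a time. Leaving out single peat flame lungs and single peat flame or red oak flame hearts was added after seeing the data, as was the correlation of heart with lung. For the latter and for the block in the heart against lung comparison, the animal number in the titles pairs the tissues. In the setting of probes tested singly, a gene was counted by its probe of smallest p. Correlations and figures used Python 3.11.15 with numpy 2.4.6, scipy 1.17.1, pandas 2.3.3 and matplotlib 3.10.9.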

Additional observations from a re-analysis of the deposited data

Results flagged for a closer look

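In 7 of 49 groups of values 1 sample lay far from the others of its group; chance flags about 1 in 20 groups. The summed CPM of the 40 members was high in pine flame replicate 6 at 24 h (1372, the next 825), pine needles flame replicate 2 at 24 h (1214, the next 871), red oak flame replicate 6 at 24 h (1588, the next 887), saline replicate 2 at 24 h (1333), peat smolder replicate 5 at 4 h (804) and pine needles flame replicate 6 at 4 h (739). Pine flame replicate 6 and red oak flame replicate 6 are among the 6 libraries with few detected genes. In peat flame at 24 h, Prim1 was far above the other lungs in replicate 2 (32.5 CPM). The effect of LPS differed between the times for Cdt1 (24 h minus 4 h, 1.76 on the log2 scale) and Prim1 (1.49), by the test of that difference. These values were not examined further.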

How the results depend on the processing

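Members called in single smokes were 0 at 4 h, and 1 with DESeq2, 3 on 1 plate, 2 with that time alone and 1 when dropping libraries of few detected genes (0 to 0 when single libraries were left out). At 24 h the 1 call became 3 with DESeq2, 0 with its size factors, with each probe alone, without the filter, on 1 plate and with that time alone, 2 with libraries dropped for few detected genes, and 0 to 1 when single libraries were left out. After LPS at 4 h the 1 call became 3 with each probe alone and 2 on 1 plate, with that time alone and when libraries of few detected genes were dropped (1 to 1 with single libraries left out). After LPS at 24 h the 7 calls became 1 on 1 plate, 4 with that time alone and 4 to 7 with single libraries left out. For flaming against smoldering smoke at 4 h 1 became 2 without the plate term, on 1 plate and when libraries of few detected genes were dropped. Across the 12 groups the 0 of 4 h became 3 with DESeq2, 6 on 1 plate and with that time alone, 4 with libraries dropped for few detected genes and 0 to 1 with single libraries left out, and the 9 of 24 h became 3 and 4 on 1 plate and with that time alone, and 6 to 9 with single libraries left out. The 2 calls of the LPS effect between times became 1 with each probe alone and 0 to 2 with single libraries left out. In heart the 1 call after smoke became 3 with DESeq2, 2 with its size factors, 0 without the filter and with only the 2 groups compared, and 0 to 2 with single hearts left out. The cause of these changes was not tested, beyond the fewer libraries of the fits on 1 plate or 1 time.

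For heart against lung, pairing the tissues by animal (replicate block) gave 19 calls in place of 20 over the 39 members of the joint fit, with 16 to 20 when single libraries were left out. Counting the 32 members that passed in each tissue alone, chosen after seeing the data, gave 15. No paired analysis was possible for the other comparisons because their groups hold different animals. The mean smoke effects, flaming against smoldering at 24 h and saline between the times gave 0 calls under every alternative that was run. No called member changed direction in its comparison under the alternatives run for it. Weak members limit the set: in heart 8 of 40 had too few counts to test, and in lung 5 members had a mean of under 14 counts.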
